A study of Rattus norvegicus with 10 samples.

Results

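The miR-30 family was described in the left ventricle of rats that received dexmedetomidine (DEX) or saline. Its members were taken by name from a rat microRNA (miRNA) microarray, with both arms of the family's hairpins included. They numbered 10 of the 761 miRNAs on the array: the 5p arms miR-30a, 30b, 30c, 30d and 30e (5 members) and the 3p arms miR-30a, 30c-1, 30c-2, 30d and 30e (5 members). The animals were male Wistar rats weighing 250 to 350 g, whose age was not given in the labels or methods. The DEX group (5 rats) received DEX, an alpha2 adrenergic receptor agonist used for sedation, as an intravenous infusion for 30 min, given as a loading and then a maintenance dose followed by a saline washout. The Control group (5 rats) received saline at the same rate. RNA came from the anterior wall of the left ventricle, with 1 array per rat, and was labelled with Cy5. The comparison asks whether the abundance of these miRNAs in the heart differed after the infusion.

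A miRNA is cut from a hairpin precursor as a duplex of its 5p and 3p arms. One arm is usually retained in an Argonaute protein as the guide, and the other, the passenger, is mostly degraded. The guide recognizes messenger RNAs mainly through its seed, the bases 2 to 8 from its 5′ end. In the miR-30 family the 5p arms are the usual guides. The family is abundant in heart muscle cells, and its known targets there include the connective tissue growth factor gene Ccn2, which promotes matrix deposition.

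The sequences below are shown because the seed is what makes these miRNAs a family and because the members differ by few bases, which bears on how well an array probe can separate them. RefSeq sequences (GRCr8) were found for 6 of the 10 members. The miRNAs rno-miR-30b-5p, rno-miR-30d-5p, rno-miR-30d-3p and rno-miR-30e-3p are named only. The seed is in capitals, read 5′ to 3′.
rno-miR-30a-5p: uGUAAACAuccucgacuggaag
rno-miR-30c-5p: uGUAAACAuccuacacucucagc
rno-miR-30e-5p: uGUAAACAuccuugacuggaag
rno-miR-30a-3p: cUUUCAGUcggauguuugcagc
rno-miR-30c-1-3p: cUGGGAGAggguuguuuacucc
rno-miR-30c-2-3p: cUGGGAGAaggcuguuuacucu

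The 5p members shown share the seed GUAAACA. Among the 685 miRNAs of the array with a sequence in the table, 1 other miRNA had this seed, rno-miR-384-5p, which was detected on 0 of the 10 arrays. The rno-miR-30a-5p and rno-miR-30e-5p sequences were equal at 21 of 22 bases, with the single change C13U from 30a to 30e, counted from the 5′ end. The rno-miR-30c-5p sequence matched each of them at 17 of the first 22 bases. On the 3p side, rno-miR-30c-1-3p and rno-miR-30c-2-3p shared the seed UGGGAGA and were equal at 19 of 22 bases (G9A, U12C and C22U, from 30c-1 to 30c-2), while rno-miR-30a-3p had the seed UUUCAGU. Binding of one member to the probe of another was not tested by these data, so the values of 30a-5p and miR-30e-5p, and of 30c-1-3p and 30c-2-3p, may not be fully separate. The members without a sequence here could not be compared in this way, and the same may hold for them.

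The hairpins are shown to place the arms that the array reports in one precursor (GRCr8, arms found in the sequence table in capitals). Mir30c1 (chr5:139634455-139634543) and Mir30e (chr5:139637450-139637541) lie 2906 bases apart on the minus strand, both within the protein-coding gene Nfyc, which encodes a subunit of a CCAAT-binding transcription factor. Mir30a (chr9:33233941-33234011) and Mir30c2 (chr9:33253682-33253765) lie 19670 bases apart on the plus strand. The same mature rno-miR-30c-5p comes from both Mir30c1 and Mir30c2, so its probe reports the sum of both loci, whereas each 3p arm reports 1 locus.
Mir30c1: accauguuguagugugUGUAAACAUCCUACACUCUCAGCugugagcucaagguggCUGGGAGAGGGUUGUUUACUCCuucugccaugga
Mir30c2: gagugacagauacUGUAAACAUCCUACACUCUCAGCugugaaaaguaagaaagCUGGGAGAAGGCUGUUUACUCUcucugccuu
Mir30a: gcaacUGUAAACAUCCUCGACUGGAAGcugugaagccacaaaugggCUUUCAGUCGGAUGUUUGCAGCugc

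Values are spot intensities after subtraction of the blank spots, scaled so that the median of the miRNAs detected on each array was 25, in arbitrary units. Probes bind their miRNAs with different strength, so a level is compared between arrays and never between members. Of the 761 miRNAs, 503 were detected on at least 5 of the 10 arrays and were tested, and all 10 members were among them. Detection covered 483 to 533 miRNAs per array, and the correlation of log2 values between arrays over the tested miRNAs was 0.974 to 0.989, so no 2 arrays were copies of each other. By their names the arrays came from 3 slides: slide 1 held the first 4 Control arrays, slide 2 held Control 5 and the first 3 DEX arrays, and slide 3 held the last 2 DEX arrays. The slide is inferred from a number in the array names, and no label describes it as a batch. DEX 1 was the dimmest array, with a median signal of 17.3 above the blank spots against 35.4 to 53.5 on the others. Spots without a probe had a median of 37.7 above the blank spots on DEX 4 and 28.8 on DEX 5, both of slide 3. On the other arrays this median was -0.797 to 10.2. These medians are unscaled, and the scaling factors of DEX 4 and DEX 5 were 0.467 and 0.580. How much of the dim signals on DEX 4 and DEX 5 was nonspecific was not tested. The tissue label was checked with heart muscle miRNAs: miR-1-3p, miR-133a-3p, miR-133b-3p, miR-208a-3p and miR-499-5p were all detected, with a summed signal of 32198 to 45996 in Control and 31079 to 44985 in DEX. In RNA from whole tissue, fewer cells of a type and less RNA per cell cannot be told apart.

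No member of the family passed the test between the groups. With limma, 0 of the 10 members had an adjusted p under 0.05, as did 0% of all 503 tested miRNAs (members' adjusted p 0.905 to 0.914). At an unadjusted p under 0.05 there were 0 members, against 2.98% of all tested miRNAs, and the smallest unadjusted p of a member in limma was 0.203. The groups overlapped for every member, and did not overlap for 0.599% of the 501 tested miRNAs without a bad spot. The log2 difference (DEX minus Control) was above 0 for 10 of 10 members, a direction shared by 59.2% of all tested miRNAs, but it was below 0 for 8 members without scaling between arrays, for 2 with quantile normalization and for 9 with slide as a fixed term. Without scaling the median of all tested miRNAs was itself at -0.16, and with slide as a fixed term at -0.19. With the scaling used here and no slide term, the median log2 difference was 0.12 over the 5p members and 0.16 over the 3p members. Over all tested miRNAs it was 0.04, and their middle 90% lay between -0.40 and 0.36. The members move together across arrays, as shown further on, so these are not 10 separate observations.

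Among the guide arms, rno-miR-30a-5p had signals of 2842, 2793, 2193, 2487 and 3423 in Control and of 3348, 2885, 2807, 2579 and 3404 in DEX, here and below in the order of the replicate numbers. Its highest array of all was a Control array, Control 5, and its lowest was Control 3. The group means were 2748 ± 459 and 3005 ± 358 (SD, n = 5), a 1.10-fold difference with a 95% confidence interval of 0.875 to 1.38.

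For rno-miR-30c-5p, the member that has 2 loci, the signals were 4503, 4644, 3578, 3858 and 5448 in Control and 6416, 4625, 4338, 4649 and 5362 in DEX. DEX 1 stood above every other array, and the remaining DEX arrays lay within the Control range. The means were 4406 ± 731 and 5078 ± 838 (SD, n = 5), with a log2 difference of 0.21 ± 0.16 (SE), the largest among the 5p members, and an interval of -0.14 to 0.55. Without DEX 1 the difference was 0.12.

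The rno-miR-30e-5p signals, which belong to the hairpin beside Mir30c1, were 2554, 2256, 1947, 2162 and 2882 in Control and 2661, 2614, 2330, 2263 and 2907 in DEX. The highest Control and the highest DEX array were nearly level. Its log2 difference was 0.12 ± 0.14 (SE).

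The signals of rno-miR-30b-5p were 2741, 2558, 2092, 2486 and 2883 in Control and 2768, 2673, 2423, 2465 and 3114 in DEX. Those of rno-miR-30d-5p were 2379, 2090, 1788, 1975 and 2701 in Control and 2515, 2252, 2133, 2156 and 2539 in DEX. For 30b-5p, 4 of 5 DEX arrays lay inside the Control range, and for 30d-5p all 5 did. Their log2 differences were 0.08 ± 0.14 and 0.10 ± 0.14 (SE).

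One pattern recurred in the Control group. Control 5 was the highest and Control 3 the lowest Control array for 5 of 5 guide arms. Part of this was shared with other miRNAs. The mean log2 value of the 405 miRNAs detected on every array was also highest in Control 5 (6.057) and lowest in Control 3 (5.723) among the Control arrays. With that mean subtracted, the 5p mean was still highest in Control 5 (5.651) and lowest in Control 3 (5.41) among them. Control 5 is also the one Control array that shared a slide with DEX arrays. Within slide 2, where 3 DEX arrays can be set against Control 5 alone, the log2 difference was -0.19 for 30a-5p, -0.14 for 30b-5p, -0.11 for 30c-5p, -0.23 for 30d-5p and -0.19 for miR-30e-5p. All 5 thus had the opposite sign of the pooled value, with 1 Control array behind them. A fit with slide as a fixed term gives the same values, since slide 2 is the only slide that holds both groups. In that fit the median was -0.19 over the 5p members and also -0.19 over all tested miRNAs, so the reversal was not particular to the family. Whether slide or the animal in Control 5 accounts for this cannot be told apart.

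**Figure D1:**
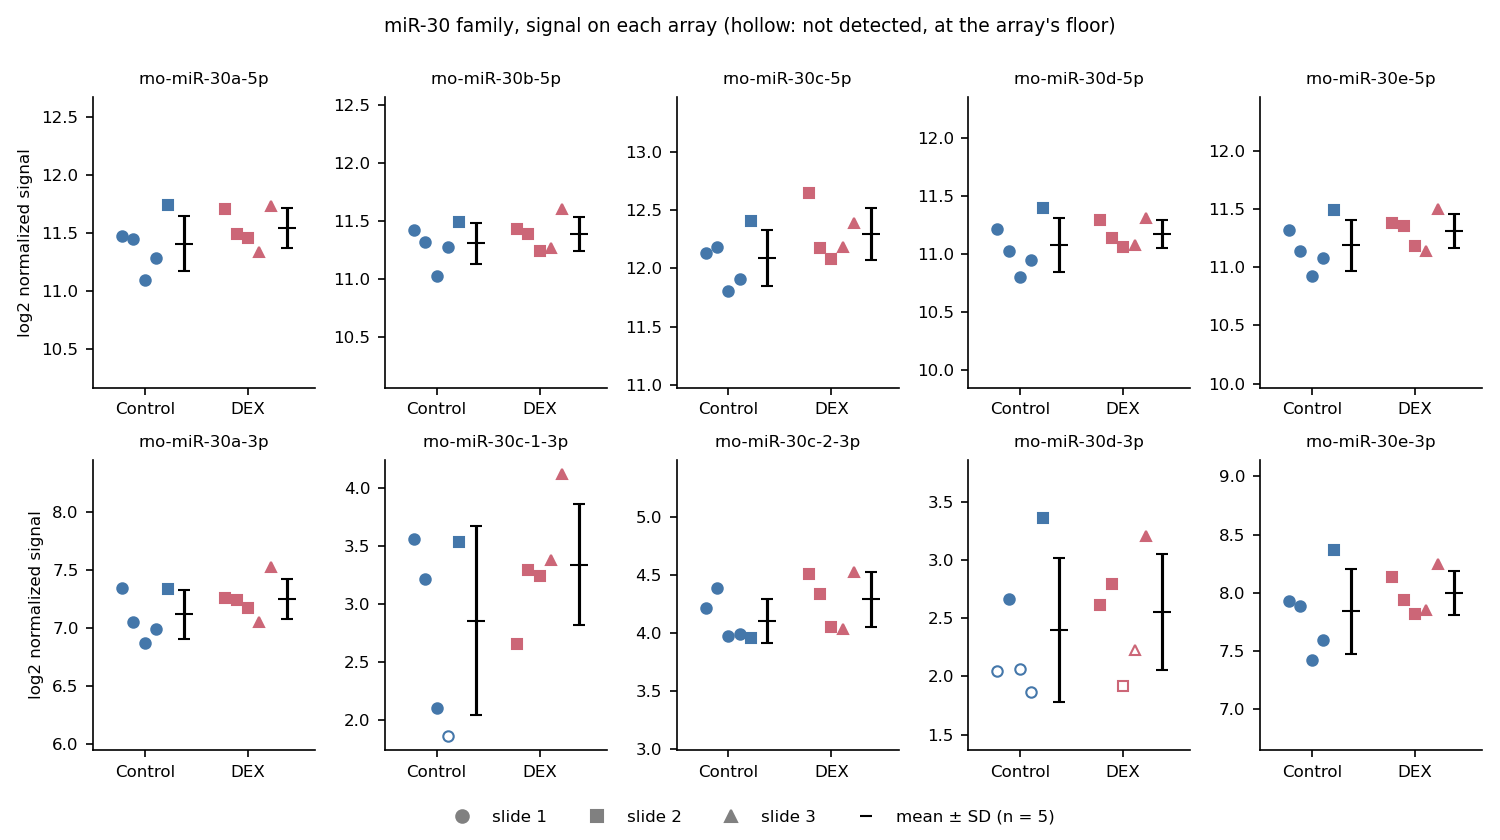
Signal of each miR-30 member on the 10 arrays, on a log2 scale of normalized signal in arbitrary units, with every panel spanning the same range of log2 units; marker shape gives the slide, hollow markers are undetected values at the floor, and black bars are the mean ± SD of the log2 values (n = 5). The groups overlap in all 10 panels, and Control 5 (square) is the highest Control array in all 5 panels of the upper row.

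The passenger arms are described against the floor, the lowest value detected on each array (3.64 to 5.09). The 3p arms of 30a, 30c-2 and 30e were detected on every array, whereas rno-miR-30c-1-3p and rno-miR-30d-3p lay close to the floor. The arm of 30a, rno-miR-30a-3p, had signals of 162, 133, 117, 127 and 161 in Control and 153, 151, 144, 133 and 184 in DEX, or 28.0 to 40.0 times the floor. Its group means were 140 ± 20.5 and 153 ± 19.1 (SD, n = 5), with a log2 difference of 0.13 ± 0.15 (SE).

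The rno-miR-30e-3p signals were 243, 237, 171, 193 and 331 in Control and 281, 245, 225, 231 and 304 in DEX. Control 5 was again the highest of all arrays and Control 3 the lowest. The means were 235 ± 61.7 and 257 ± 34.3 (SD, n = 5), and the log2 difference was 0.16 ± 0.18 (SE), which became -0.41 within slide 2.

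The arms of the 30c hairpins are each specific to 1 locus. Signals of rno-miR-30c-2-3p, from the Mir30c2 locus, were 18.5, 20.9, 15.7, 15.9 and 15.5 in Control and 22.7, 20.2, 16.6, 16.4 and 23.0 in DEX, 3.52 to 5.35 times the floor. DEX 1 and DEX 5 exceeded all Control arrays. On DEX 4 the signal lay below the median of the spots without a probe, on the same scale. Its log2 difference was 0.19 ± 0.15 (SE), and it was the one member that stayed above 0 within slide 2, at 0.34, with Control 5 as its lowest Control array.

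The probe for rno-miR-30c-1-3p, from Mir30c1, detected its miRNA on 4 of 5 Control and 5 of 5 DEX arrays. The signals were 11.8, 9.28, 4.30, 3.64 and 11.6 in Control and 6.31, 9.79, 9.48, 10.4 and 17.4 in DEX. It had the largest log2 difference of the family, 0.49 ± 0.36 (SE), and also the widest interval, -0.30 to 1.27. Control 4, undetected and set to the floor, and Control 3, just above it, made the Control mean low. Without Control 4 the difference was 0.24, and without DEX 5 it was 0.29. DEX 4 and DEX 5 are the arrays with bright spots without a probe. On DEX 4 the 30c-1-3p signal lay below the median of those spots, on the same scale.

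Detection of rno-miR-30d-3p was limited to 2 of 5 Control and 3 of 5 DEX arrays. Where detected, its signals were 6.33 and 10.3 in Control and 6.14, 6.96 and 9.22 in DEX. The last of these, on DEX 5, lay below the median of the spots without a probe, on the same scale. The log2 difference of 0.15 ± 0.30 (SE) rests on floor values, and was -0.14 with undetected values left missing and -0.0089 without DEX 5. A difference in this arm was not measurable at these signals.

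The spread between replicates set what could be seen. The pooled SD on the log2 scale was 0.16 to 0.23 for the 5p members and 0.19 to 0.68 for the 3p members, against a median of 0.30 over all tested miRNAs. The 95% intervals of the 5p members lay within -0.22 to 0.55 on the log2 scale. Under this processing, a 1.5-fold rise lay outside the interval of each 5p member and of rno-miR-30a-3p, rno-miR-30c-2-3p and rno-miR-30e-3p, which had upper bounds of 1.30 to 1.47, while 30c-1-3p and 30d-3p had upper bounds of 2.41 and 1.76. These bounds depend on the background correction, the scaling and the slide term. With normexp on the local background, the log2 difference of 30c-5p was 1.26 ± 0.57 (SE, adjusted p = 0.997 in limma) and the 5p median 0.67. Without scaling between arrays the SE of the 5p members was 0.35, against 0.14 to 0.16 here, so their intervals were wider. With slide as a fixed term and Control 5 as the only Control array compared, the difference of 30c-2-3p was 0.34, against 0.19 here.

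**Figure D2:**
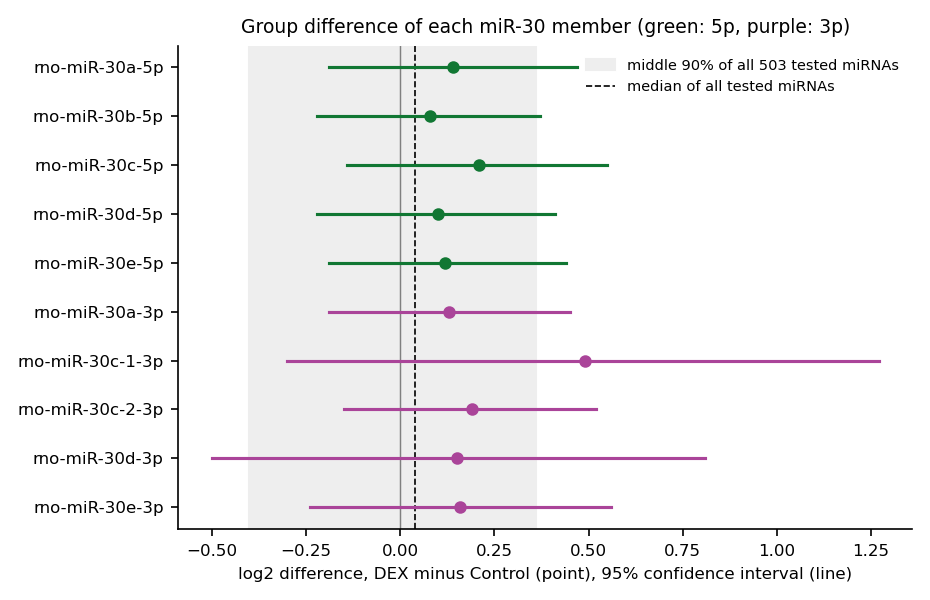
Log2 difference between DEX and Control for each member (points) with its 95% confidence interval from limma (lines); the grey band holds the middle 90% of all 503 tested miRNAs and the dashed line is their median, 0.04. Every interval includes 0, and those of 30c-1-3p and 30d-3p are the widest.

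The members rose and fell together from array to array. As a description, the deviations of the 5p members from their group means correlated with a median r of 0.91 over 10 pairs (0.77 to 0.97, 10 arrays), against a median of 0.29 over all pairs of the 405 miRNAs detected on every array, of which the upper 10% lay above 0.76. The lowest value was that of 30b-5p with 30c-5p. The 30a-5p and miR-30e-5p pair, with 1 differing base, had r = 0.95. The pair of 30d-5p with miR-30e-5p, whose bases were not compared, had r = 0.97. The points share array, scaling factor and animal. The 405 miRNAs were not matched to the members for brightness, and some miRNAs outside the family also followed the 5p mean closely, as given further on.

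Among the passenger arms, rno-miR-30e-3p varied with the guide arms at r = 0.89 to 0.97, and rno-miR-30a-3p at 0.66 to 0.94. The other arms had lower values for most pairs. The values were 0.70 to 0.78 for 30d-3p, 0.42 to 0.68 for 30c-1-3p and 0.36 to 0.55 for 30c-2-3p. Those of 30d-3p, detected on 2 of 5 Control and 3 of 5 DEX arrays, rest in part on floor values that carry the array's scaling. The 30c-1-3p arm was at the floor on Control 4. The 2 arms that share the seed UGGGAGA had an r of 0.29 with each other.

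**Figure D3:**
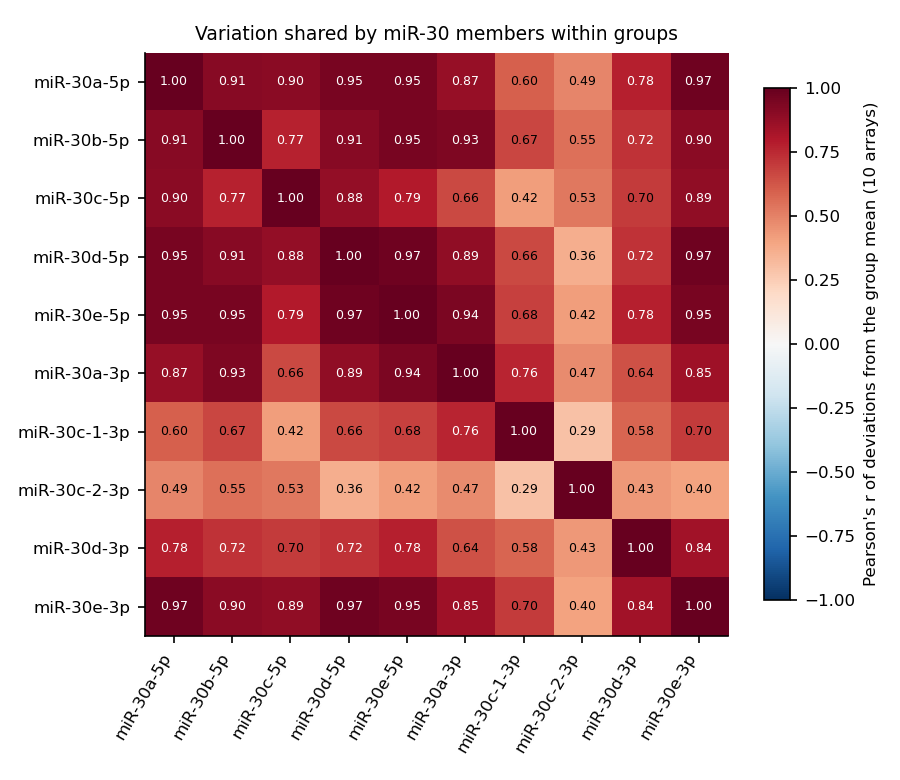
Pearson's r between members, computed over 10 arrays from log2 deviations from the group mean; colour runs from blue (-1) to red (1). The block of 5p members with 30e-3p is darkest, and 30c-2-3p, with values of 0.29 to 0.55, is the palest row.

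The shared movement depended on how the arrays were scaled. When each array was scaled on the 405 miRNAs detected everywhere, as the deposited scores are, the median r of the 5p pairs was 0.68 and that of all pairs 0.04. With quantile normalization it was 0.13, and with no scaling 0.99, where all pairs had 0.81. The number of miRNAs detected on an array moved with the family's level under the scaling used here. This scaling uses the array's own detected miRNAs, so their number enters the level of every miRNA, not of this family alone. Under it, a test cannot separate the family's level from the number detected. The mean log2 value of the 5p members against this number gave r = 0.68 (permutation p = 0.0312, adjusted 0.0483) and rho = 0.75 (permutation p = 0.0149, adjusted 0.0447) over 10 arrays. Within the groups, as a description over 5 arrays each, r was 0.88 in Control and 0.96 in DEX. Without Control 4 and Control 5, the arrays farthest from the median number, r was 0.52. With the shared scaling r was 0.08 (permutation p = 0.838). These relations, 3 in all, were chosen after the data had been seen.

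With the shared scaling the mean of the guide arms varied less among the DEX arrays than among the Control arrays, which did not hold for 30c-5p alone (3058 to 3870 in DEX, 2496 to 3183 in Control). The mean log2 value of the 5 members was 10.86, 10.73, 10.61, 10.84 and 10.93 in Control and 10.96, 10.91, 10.97, 10.93 and 10.95 in DEX. The 4 Control arrays of slide 1 lay below all DEX arrays, and Control 5, on slide 2, lay among them. Slide 1 held no DEX array, so slide and group cannot be told apart here. The SD was 0.12 in Control and 0.02 in DEX; under the scaling used here it was 0.22 and 0.15. Neither difference in spread was tested.

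For single members on this scale, rno-miR-30c-5p had signals of 2861, 2875, 2496, 2801 and 3183 in Control and 3870, 3058, 3204, 3355 and 3160 in DEX. All 5 DEX arrays exceeded the 4 Control arrays of slide 1, and 3 exceeded Control 5 as well. The same was so for 30a-5p. Slide and group cannot be told apart in these counts, since slide 1 held Control arrays only. The share of all tested miRNAs with such counts was not determined, so they are not read as particular to these members. On this scale the median log2 difference of all tested miRNAs was 0.07. The other guide arms were less separate: 1 DEX array of 30b-5p, 3 of 30d-5p and 4 of miR-30e-5p exceeded the Control arrays of slide 1, and for 30d-5p 0 DEX arrays exceeded all Control arrays. The log2 difference of rno-miR-30c-5p was 0.23 ± 0.11 (SE), with an unadjusted p of 0.0531 and an adjusted p of 0.632 in limma. The other 5p members had log2 differences of 0.10 to 0.16 and adjusted p of 0.632 to 0.702 in limma.

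**Figure D4:**
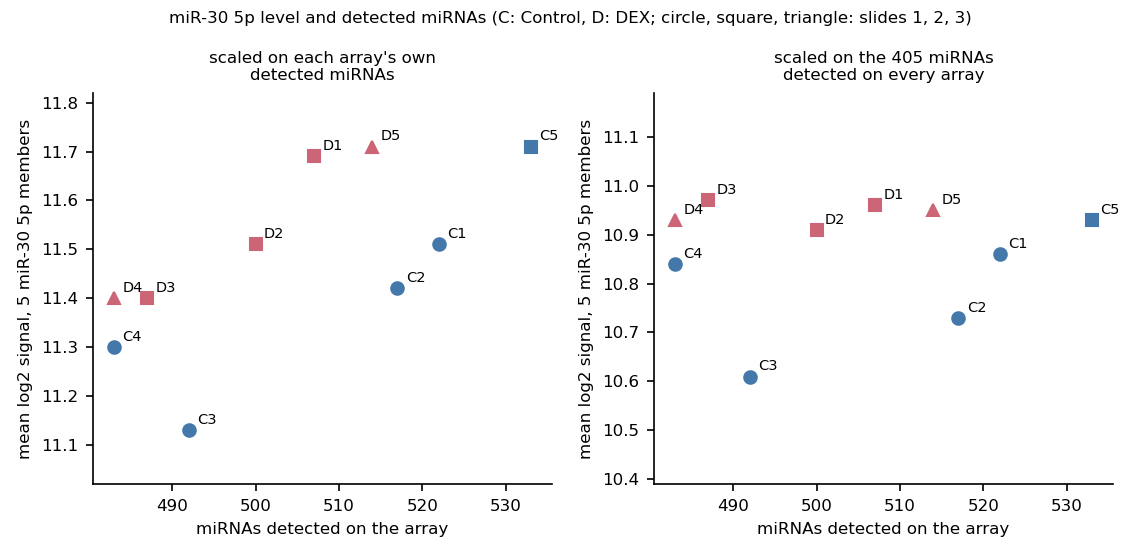
Mean log2 signal of the 5 miR-30 5p members against the number of miRNAs detected on each array, with each array scaled on its own detected miRNAs (left) or on the 405 miRNAs detected on every array (right); colour gives the group (blue Control, red DEX) and shape the slide. On the left, where the number detected also enters the scaling, the level rises with it (r = 0.68). On the right the DEX arrays sit between 10.91 and 10.97, with Control 5 among them.

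The balance of the arms was compared as the log2 ratio of 5p over 3p signal within each array, where the scaling of the array cancels. The level of a ratio carries the binding strength of both probes, so only its change between groups is read. Over the 159 pairs of arms that could be tested on the array, 0% changed at an adjusted p under 0.05 and 6.92% had an unadjusted p under 0.05. Of the 6 miR-30 pairs, 0 changed by either measure (smallest adjusted p 0.709 in limma).

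For the 30a hairpin the log2 ratio was 4.13, 4.39, 4.23, 4.29 and 4.41 in Control and 4.46, 4.26, 4.29, 4.28 and 4.21 in DEX. The groups covered the same range. The difference was 0.0084 ± 0.12 (SE), with an interval of -0.26 to 0.27, the narrowest of the 6 pairs. The 30e pair was similarly even, at -0.04 ± 0.13 (SE) with an interval of -0.32 to 0.24. For 30c-5p over 30c-2-3p the difference was 0.02 ± 0.16 (SE), with a wider Control group (SD 0.27, against 0.11 for 30a) in which Control 5, at 8.46, stood above the others at 7.79 to 7.93. It was -0.45 within slide 2 and 0.14 without Control 5.

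The largest difference in the family was that of 30b. Its 3p arm, rno-miR-30b-3p, is on the array but not among the 10 members, and was detected on 4 of 5 Control and 5 of 5 DEX arrays. The log2 ratio was 7.59, 8.87, 8.97, 8.76 and 7.93 in Control and 8.12, 7.86, 7.61, 8.12 and 7.68 in DEX. Control 2, Control 3 and Control 4 lay above all DEX arrays, and Control 1 lay below all of them. The difference was -0.55 ± 0.27 (SE; interval -1.15 to 0.06; adjusted p = 0.709 in limma), and -0.06 within slide 2. The Control 3 value is a lower bound, because rno-miR-30b-3p was at the floor there. The 3p arm itself had a log2 difference of 0.62 ± 0.31 (SE, adjusted p = 0.905 in limma). On DEX 4 and DEX 5 its signal lay below the median of the spots without a probe, on the same scale. The remaining pairs, with their dim 3p arms, gave -0.28 ± 0.35 for 30c-5p over 30c-1-3p and -0.06 ± 0.26 for 30d (SE).

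**Figure D5:**
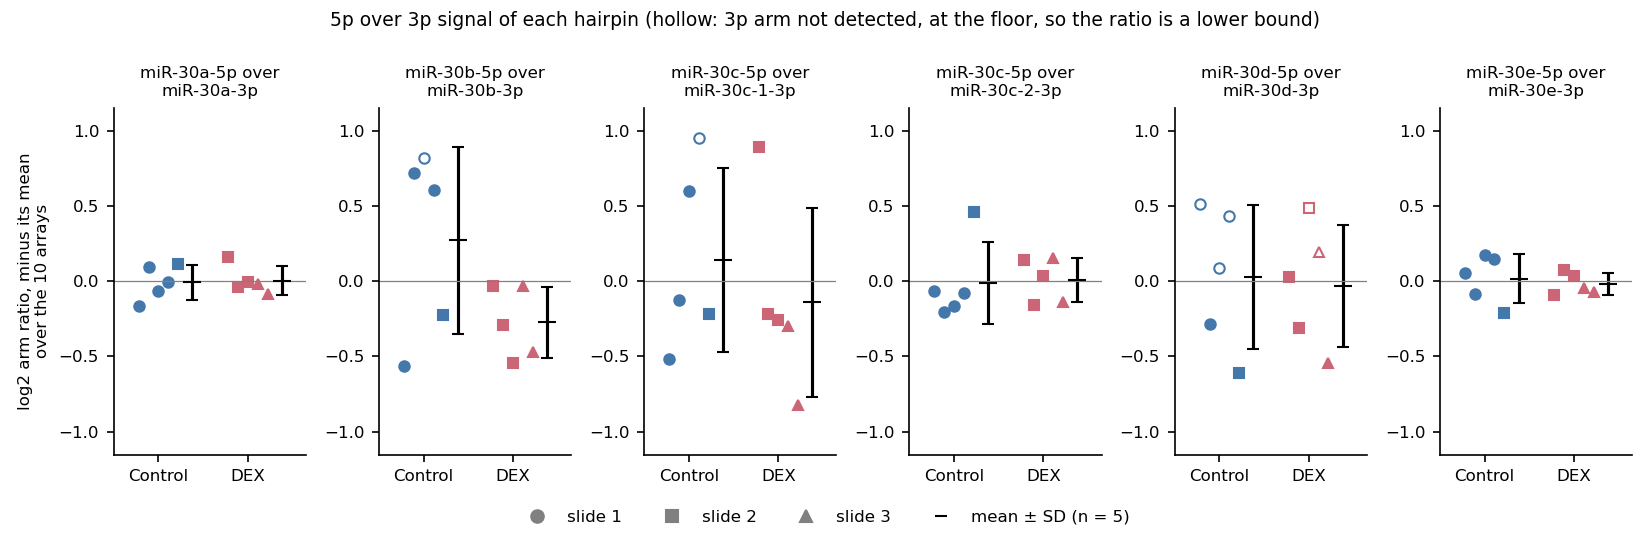
Log2 ratio of 5p over 3p signal for the 6 miR-30 pairs on each array, minus the mean of the 10 arrays; shape gives the slide, hollow markers are arrays with the 3p arm at the floor, and bars are the mean ± SD (n = 5). The 30a and 30e pairs are tight and level between groups, and the pairs of 30b, 30c-1 and 30d scatter most.

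Outside the family, the miRNAs whose log2 values over the 10 arrays were most like the mean of the 5p members were rno-miR-107-3p (r = 0.977), rno-miR-103-3p (r = 0.977) and rno-miR-301a-3p (r = 0.975). For the mean of the 3p members these were rno-miR-378a-3p (r = 0.960), rno-let-7e-5p (r = 0.942) and rno-miR-347 (r = 0.933). The median over the 397 miRNAs compared was 0.53 in both cases. These values share the scaling described above and are given without a test.

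Lists of other heart miRNAs were set beside the family. Of 8 heart muscle miRNAs outside the family, 0 passed the adjusted threshold and 7 had a log2 difference above 0, with a median of 0.14. Among them, miR-1-3p, a muscle miRNA, had 0.16 ± 0.18 (SE) and miR-133a-3p, which also targets Ccn2, had 0.04 ± 0.16 (SE). Of 6 miRNAs tied to matrix and fibroblasts, 0 passed and 5 were above 0, with a median of 0.17. They included miR-29b-3p, a repressor of collagen genes, at 0.16 ± 0.15 (SE) and miR-21-5p, which is enriched in fibroblasts, at 0.37 ± 0.23 (SE). Every miRNA of both lists had an adjusted p of at least 0.905 in limma, and the direction is that of 59.2% of all tested miRNAs.

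Markers of other cells in the tissue were measured beside these values. The summed signal of 2 endothelial markers was 4360 to 5783 in Control and 4370 to 6739 in DEX, and that of 2 smooth muscle markers 2433 to 3711 and 2654 to 3857. For 4 leukocyte markers it was 690 to 889 and 804 to 1073. The median log2 difference was 0.07 for the endothelial, 0.10 for the smooth muscle and 0.25 for the leukocyte markers. The 3 red cell markers had sums of 564 to 1028 and 349 to 1004 and a median log2 difference of -0.59. They did not move alike, with miR-144-3p at -0.75, miR-451-5p at -0.59 and miR-486 at 0.02. In each of these lists 0 markers passed the adjusted threshold and 0 were undetected on all arrays. Their part in the members' values was not tested.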

How the data were processed

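RNA from 10 left ventricles, 1 per array, was hybridized to a rat miRNA chip. Groups and replicate numbers came from the sample titles. Per the file headers, the deposited scanner files hold the median spot intensity at 635 nm on a linear scale, merged from 3 gain settings, before background removal. The deposited series table holds the authors' normalized score per miRNA: the intensity less a trimmed mean of the 1664 blank spots (5% removed from each end), scaled to a median of 25 over the miRNAs detected on all arrays. This rule gave 99.8% of 5038 scores within 0.51. A miRNA counted as detected where the table held a score. Direction and scale of the scores are therefore known, and they are not centred. The versions of the scanner and extraction software and the miRBase release are not given in the sources used here.

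For the analysis, the blank mean was subtracted, each array was scaled to a median of 25 over its own detected miRNAs, undetected values took the array's lowest detected value, and log2 was taken. Spots marked bad were left missing. The 503 miRNAs detected on at least 5 arrays, and the 159 pairs of arms with both tested, were fitted with limma 3.58.1 (R 4.3.3; lmFit and eBayes, two-sided, Benjamini-Hochberg adjustment over all tested, threshold 0.05). The code was tested on simulated data. Correlations across arrays used permutation tests, two-sided. Python 3.11.15 and matplotlib 3.10.9 were used for tables and figures.

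The members, the comparison lists and the tests were chosen with earlier results of these data known. The miRNAs named are the members, their other arms, other miRNAs with a member's seed, the 3 most correlated with the mean of each arm, and those of the lists. Alternatives covered the background correction, the scaling, the score table, undetected values, the filter, the linear model with slide or replicate number, the methods' t-test, and leaving out each array. Precision is limited by the number of arrays.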

Additional observations from a re-analysis of the deposited data

Results flagged for a closer look

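The log2 ratio of rno-miR-30c-5p over rno-miR-30c-2-3p on Control 5 stood apart from the other Control arrays: it was 8.46 against 7.79 to 7.93, and the distance to the next array made up 0.800 of the Control range, above the critical value of 0.71 for 5 arrays. Control 5 had the highest 30c-5p and the lowest 30c-2-3p signal among the Control arrays. It was 1 of 32 groups of arrays examined, where chance gives about 1 in 20, or 1.60.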

How the results depend on the processing

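In 24 alternatives, 0 members and 0 of all tested miRNAs passed the adjusted threshold (smallest adjusted p of a member in limma 0.589 to 0.997, by alternative). The methods' t-test at its own threshold found 8 of 503 miRNAs and 0 members, and 0 after Benjamini-Hochberg adjustment. Directions were less stable, and the cause was not tested. With no scaling between arrays, the log2 difference was -0.07 for 30a-5p, -0.13 for 30b-5p, -0.11 for 30d-5p, -0.08 for miR-30e-5p, -0.08 for 30a-3p, -0.02 for 30c-2-3p, -0.05 for 30d-3p and -0.05 for 30e-3p, the 5p median was -0.08, and the median of all tested miRNAs moved from 0.04 to -0.16. With slide as a fixed term, which leaves Control 5 as the only Control array compared, it was -0.19 for 30a-5p, -0.14 for 30b-5p, -0.11 for 30c-5p, -0.23 for 30d-5p, -0.19 for miR-30e-5p, -0.12 for 30a-3p, -0.47 for 30c-1-3p, -0.91 for 30d-3p and -0.41 for 30e-3p, with medians of -0.19 (5p), -0.41 (3p) and -0.19 (all tested miRNAs). Normexp with the local background gave its largest value for 30c-5p (1.26 ± 0.57, SE, against 0.21), with -0.09 for 30d-5p, -0.24 for 30e-3p and a 5p median of 0.67. Without background correction 30b-5p was at -0.02 and 30d-5p at -0.0006, and with quantile normalization at -0.04 and -0.03. With undetected values missing, 30d-3p was at -0.14. Leaving out each array gave 5p medians of 0.06 to 0.20 and 3p medians of 0.07 to 0.29, lowest without Control 3 and highest without Control 5, and 30d-3p ran from -0.0089 (without DEX 5) to 0.39.

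Over 22 alternatives for the arm ratios, 0 miR-30 pairs passed (smallest adjusted p 0.301 in limma). Of all pairs tested, 1 outside the family passed with slide as a fixed term and 1 without DEX 3 (range 0 to 1 on leaving out each array). The log2 difference of the ratio had the other sign for 30a with normexp (-0.09), quantile normalization (-0.01) and slide as a fixed term (-0.07). For 30b it did so with normexp (0.43), and for 30c-5p over 30c-1-3p with normexp (1.08), without background correction (0.05) and with slide fixed (0.36). The ratio of 30c-5p over 30c-2-3p was 1.20 ± 0.56 (SE) with normexp, -0.14 with quantile normalization, -0.45 with slide fixed and -0.0061 with slide as a random term. The 30d ratio was 0.02 in the score table, 0.17 with undetected values missing and 0.68 with slide fixed, and the 30e ratio 0.92 with normexp and 0.22 with slide fixed. Leaving out each array, the ratios ran from -0.03 to 0.04 (30a), -0.75 (without Control 1) to -0.41 (without Control 3) for 30b, -0.54 (without DEX 1) to -0.08 (without Control 4) for 30c-1, -0.03 to 0.14 (30c-2), -0.22 to 0.07 (30d) and -0.09 to 0.0037 (30e).

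The median within-group r of the 5p pairs was 0.68 with the score table or the shared scaling, 0.99 without scaling, 0.55 with normexp and 0.13 with quantile normalization. Replicate numbers did not pair the arrays (correlation of deviations -0.08 to 0.11). With a replicate block, 0 members and 0 of all tested miRNAs were called, against 0 without it (smallest adjusted p of a member 0.674 in limma).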
